A study of Mus musculus with 8 samples.

Results

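The Spata and Tex genes of the mouse testis were examined in RNA from Tmem232-null and wild-type males. Symbols of the form Spata plus a number (spermatogenesis associated) or Tex plus a number (testis expressed) were taken from the deposited gene table, except for 10 genes that had been set aside. The rule gave 57 genes of 19906, and 56 of them passed the filter on low counts, by which 15787 genes were tested. RNA of whole testis was sequenced from 4 Tmem232-/- and 4 Tmem232+/+ mice aged 2 months, with 1 library per mouse. The Tmem232-/- mice carried a germline deletion made with CRISPR-Cas9 in C57BL/6 oocytes, which removed part of the gene in every cell. The Tmem232+/+ mice were wild type, and the labels name no treatment.

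These symbols name genes by where they were found and not by descent. Many are silent outside the male germ line and come on after meiosis, when round spermatids grow an acrosome and a flagellum, exchange histones for protamines and stop transcription as the nucleus condenses. Others, such as Spata5, Tex2, Tex10 and Tex264, encode proteins of ribosome assembly, lipid transfer or the endoplasmic reticulum that most cells use. Whole testis holds every stage together with Sertoli, Leydig and vascular cells, so fewer cells of a type and less RNA per cell cannot be told apart.

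Each library held between 15428421 and 16350871 estimated counts. Tmem232 itself was measured at 122.1 to 147.6 CPM (counts scaled to library size by TMM) with the label Tmem232-/- and at 106.3 to 111.2 CPM with the label Tmem232+/+. It was called higher with the label Tmem232-/- (edgeR, log2 fold change 0.27, adjusted p = 0.0335). A count of the whole gene does not separate the deleted part from the rest and did not check the labels, so groups are named by their labels throughout. Markers of spermatogonia, spermatocytes and spermatids and of Sertoli, Leydig and peritubular cells were detected in each library. Of the spermatid markers, 10 of 10 elongating genes and 7 of 8 round genes were higher in the libraries labelled Tmem232-/-, whereas 3 of 8 spermatogonial and 1 of 9 spermatocyte genes were lower. Summed, the elongating spermatid markers lay at 1330 to 2204 CPM under the label Tmem232-/- and at 339 to 680.5 CPM under the other. The round spermatid markers were at 902.8 to 1130 and 555.8 to 785.7 CPM. Peritubular myoid markers were lower in 2 of 5 cases, and their sum did not overlap between the labels, at 197.3 to 235.6 and 250.2 to 295.9 CPM. The part of these markers in the results that follow was not tested. Epididymal markers summed to at most 31.71 CPM, reached in replicate 1 labelled Tmem232+/+.

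The share of Spata and Tex genes called higher was above that of all tested genes, and this difference was not tested. At an adjusted p under 0.05 (edgeR quasi-likelihood test, Benjamini-Hochberg over all tested genes), 35 of the 56 tested members (62.5%) were higher in the libraries labelled Tmem232-/-, against 10.3% of all tested genes. With at least 10 counts required in every library, which removes members that were tested through their higher group alone, 30 of 50 were higher. The share of all genes that were higher under this filter is not given here, so 30 of 50 has no matched background. Of all tested genes 1.46% were lower, and 0 members were, by edgeR or by DESeq2. These shares are close, so nothing is read from the count of 0. Without replicate 4 labelled Tmem232-/-, 1 member was lower, Spata5l1. At an unadjusted p under 0.05, 2 members (Spata5l1 and Tex13d) were lower. A fold change of 2 or more with an unadjusted P under 0.05 was met upward by 29 members (51.8%) and by 5.48% of all tested genes. The median log2 fold change of the members was 1.03, while that of all tested genes was -0.05. All 4 libraries labelled Tmem232-/- lay above all 4 others for 36 members (64.3%), against 11.8% of all tested genes, and these 36 included each of the 35 that were called. The reverse order, seen in 6.88% of all tested genes, held for 1 member, Tex13d. For genes without overlap the exact two-sided permutation test of CPM gave p = 0.0286, the smallest that 4 against 4 libraries allow. The rises were found under both symbols, in 17 of 26 Spata genes and 18 of 30 Tex genes, with medians of 1.11 and 0.95. The other 21 members had log2 fold changes between -0.42 and 0.48.

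**Figure D1:**
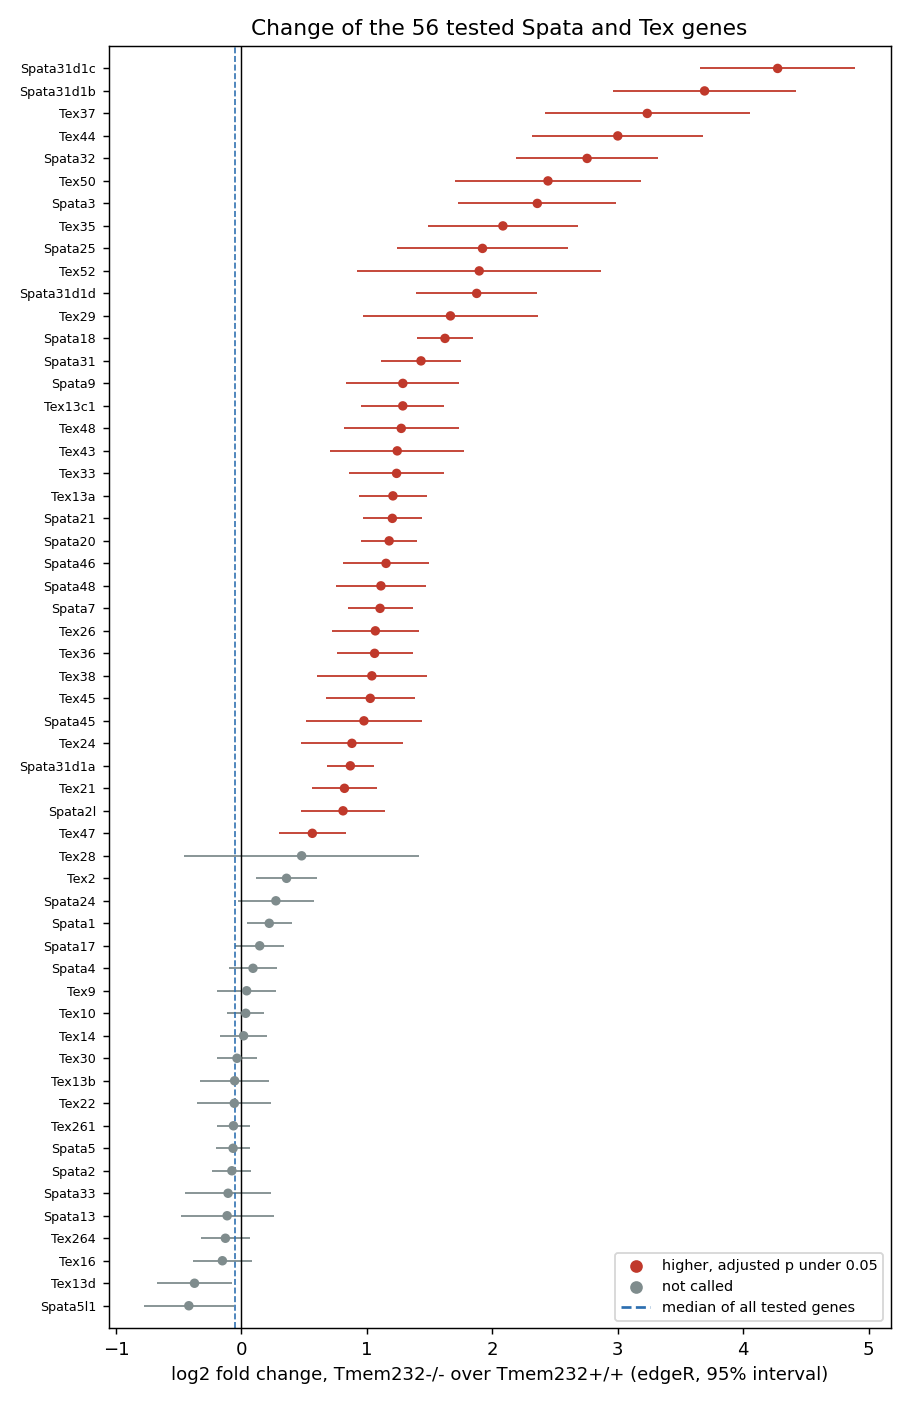
Log2 fold change of each of the 56 tested members on the x axis, with its 95% interval from edgeR, ordered by size. Red points are the 35 members called higher in the libraries labelled Tmem232-/-, grey points the 21 that were not called, and the dashed line is the median of all tested genes, -0.05. The members run from -0.42 for Spata5l1 to 4.27 for Spata31d1c.

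In the Spata31 family 5 of 5 members were higher, against 10.3% of all tested genes, with a median log2 fold change of 1.88. This count takes Spata31d1a and Spata31d1b apart, although they share reads (below). It also holds Spata31d1c, which could pass the filter on low counts through the libraries labelled Tmem232-/- alone. Spata31 and its relatives are large testis proteins, and Spata31 has been linked to the acrosome. All lie on chromosome 13. Spata31d1c (chr13:65033058-65038004, GRCm38) had the largest change of any member. Its CPM in replicates 1 to 4 was 20.6, 13.6, 11.1 and 17.6 in the libraries labelled Tmem232-/-, against 0.561, 0.484, 1.14 and 1.04 for the label Tmem232+/+. Every library labelled Tmem232+/+ was close to 1 CPM or below it, and the lowest library labelled Tmem232-/- was far above them. The log2 fold change was 4.27 (SE 0.28, adjusted p = 1.62e-05). Since 52 counts in all stood behind the Tmem232+/+ level, against 988, the ratio of the counts had a 95% interval of 14.7 to 26.3, for counting error only. From log2(FPKM + 1) with limma the change was smaller, at 2.19, on a scale that understates changes of low genes. Spata31 (chr13:64917406-64923195) was the most abundant of the family per length, at 59.9 ± 7.51 FPKM (fragments per length and library size, SD, n = 4) against 22.8 ± 4.72, and its log2 fold change was 1.43 (SE 0.14). Spata31d1d (chr13:59725925-59731752) had 70.6 ± 6.13 CPM against 19.3 ± 7.54 CPM, with a log2 fold change of 1.88 (SE 0.22).

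Spata31d1a (chr13:59700083-59706588) and Spata31d1b (chr13:59712284-59719289) shared reads, and their values apart are uncertain. Neither had whole counts, but the sum of both was whole, to within 0.005, in 8 of 8 libraries. In the GENCODE transcripts of GRCm38, 24.9% of the 50-base words of Spata31d1b occurred in Spata31d1a too, whereas no such word was shared with Spata31, Spata31d1c or Spata31d1d. The windows around the 2 start sites, from 250 bases before to 50 after, matched at 274 of 283 aligned bases (96.8%). The sequence before the start of Spata31d1b is shown because it makes the likeness of the pair visible. It covers chr13:59712034-59712283 on the plus strand of GRCm38.p6 (RefSeq), and capitals mark the 9 bases that differ from Spata31d1a.

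Spata31d1b: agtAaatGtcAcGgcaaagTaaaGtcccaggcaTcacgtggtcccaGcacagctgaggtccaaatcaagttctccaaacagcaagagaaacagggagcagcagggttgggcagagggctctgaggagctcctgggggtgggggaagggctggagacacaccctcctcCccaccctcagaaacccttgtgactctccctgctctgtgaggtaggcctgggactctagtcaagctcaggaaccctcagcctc

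As deposited, Spata31d1b had 54.4, 49.8, 33.5 and 52.1 CPM in the libraries labelled Tmem232-/- and 3.05, 1.70, 7.35 and 2.64 CPM in the others, a log2 fold change of 3.69 (SE 0.33). Spata31d1a had 47.1, 43.8, 38.7 and 49.6 CPM against 23.6, 24.6, 24.4 and 25.6 CPM, a log2 fold change of 0.87 (SE 0.09). The groups did not overlap for either gene. The share of the pair's counts that was given to Spata31d1b was 46.4% to 53.6% with the label Tmem232-/- and 6.44% to 23.2% with the label Tmem232+/+. Counted as 1 feature, the pair rose from 28.2 ± 2.48 CPM to 92.3 ± 13.9 CPM. This was a log2 fold change of 1.71 (SE 0.11, adjusted p = 1.5e-05), less than that of Spata31d1b and more than that of Spata31d1a.

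**Figure D2:**
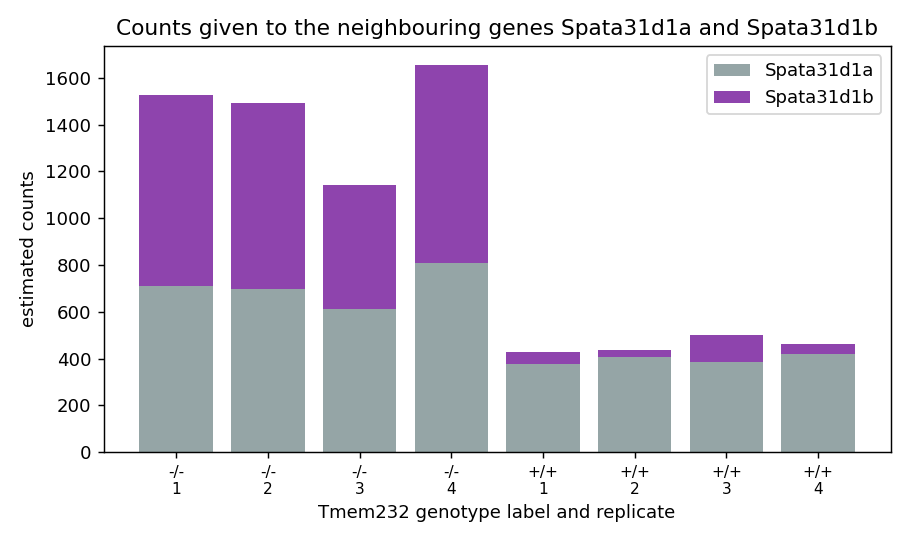
Estimated counts given to Spata31d1a (grey) and Spata31d1b (purple), stacked, in each library on the x axis. The summed bars reach 1142 to 1654 counts for the label Tmem232-/- and 427 to 501 for the label Tmem232+/+, and the purple part is at most 23.2% of a bar in the latter.

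Genes for proteins inside or along the flagellar microtubules were higher in 4 of 4 cases, against 10.3% of all tested genes, with a median of 1.18. These proteins line the doublet microtubules of the axoneme and stiffen them. Tex37 could pass the filter on low counts through the libraries labelled Tmem232-/- alone. Spata48, Tex43 and Tex45 were also higher with at least 10 counts required in every library. Tex37 (chr6:70913089-70951154), which encodes sperm microtubule inner protein SPMIP9, had 12.2, 9.67, 6.26 and 13.6 CPM in the libraries labelled Tmem232-/-. It had 0.623, 0.424, 1.84 and 1.53 CPM in the others. Replicate 3 was the lowest of its genotype in the former and the highest in the latter, and both were still well apart. The log2 fold change was 3.23 (SE 0.37, adjusted p = 0.00013). Spata48, the gene of SPMIP7, rose from 17.3 ± 3.38 to 37.3 ± 7.72 CPM, by 1.11 on the log2 scale. Tex43, the gene of SPMIP10, rose from 7.04 ± 2.30 to 16.6 ± 4.19 CPM, by 1.24. Tex45 encodes a stabilizer of axonemal microtubules and rose from 6.41 ± 1.495 to 13.1 ± 1.66 CPM, by 1.03.

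Of the members of the sperm head, 3 of 3 tested were higher, against 10.3% of all tested genes, with a median of 1.18. Spata32 could pass the filter on low counts through the libraries labelled Tmem232-/- alone. Spata20 and Spata46 were also higher with at least 10 counts required in every library. The acrosome gene Spata16, one of those set aside, was not called. Spata32 (chr11:103208127-103218432), whose protein is found at the acrosome, had 5.92, 4.02, 3.10 and 5.53 CPM in the libraries labelled Tmem232-/- and 0.561, 0.666, 0.697 and 0.798 CPM in the others. The 4 values labelled Tmem232+/+ were nearly equal and the lowest value of the other group was above each of them. Its log2 fold change was 2.76 (SE 0.26, adjusted p = 4.23e-05). Spata46 acts at the nuclear envelope in shaping the head, and it had 87.8 ± 12.2 against 39.5 ± 9.34 CPM. Spata20, a thioredoxin-like protein, was among the more abundant members with 330 ± 31.2 against 146 ± 17.8 CPM, and its log2 fold change of 1.18 had an SE of 0.10. Tex46, which is needed for the shape of the head, was the member that the filter on low counts removed. It had 112 counts in the 4 libraries labelled Tmem232-/- and 7 in the other 4, a ratio of 16.4 with a 95% interval of 7.71 to 41.8 for counting error. Its CPM was 2.20, 2.01, 0.443 and 2.46 against 0.0623, 0.0605, 0.253 and 0.0614, so that replicate 3 of both genotypes came nearest to the other.

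Among members with a part in the tail, signalling or mitochondria, 3 of 5 were higher, against 10.3% of all tested genes. Tex44 could pass the filter on low counts through the libraries labelled Tmem232-/- alone. Spata18 and Tex38 were also higher with at least 10 counts required in every library. Tex44 (chr1:86426329-86428049) had 14.1, 12.5, 8.22 and 14.0 CPM in the libraries labelled Tmem232-/- and 1.37, 0.545, 2.34 and 1.84 CPM in the others. The mean was 8.01-fold higher (SE of the log2 fold change 0.31, adjusted p = 6.85e-05), and the groups did not overlap. Spata18, known as Mieap for its part in mitochondrial quality control, rose from 28.1 ± 2.64 to 86.7 ± 10.4 CPM. Its log2 fold change of 1.62 had an SE of 0.10. Tex38, the partner of the palmitoyltransferase ZDHHC19 in spermatids, rose from 15.9 ± 5.20 to 32.7 ± 5.32 CPM, by 1.04. Spata33, which anchors calcineurin to sperm mitochondria, was not called. It had 219, 199, 170 and 220 CPM under the label Tmem232-/-, against 224, 161, 289 and 196 CPM under the other. The values were interleaved, and the log2 fold change was -0.11 with a 95% interval from -0.45 to 0.23. The axonemal gene Spata17 had 113 ± 6.98 against 102 ± 11.8 CPM, with an interval from -0.05 to 0.34, and was called higher from FPKM with limma (log2 fold change 0.31, adjusted p = 0.0217).

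**Figure D3:**
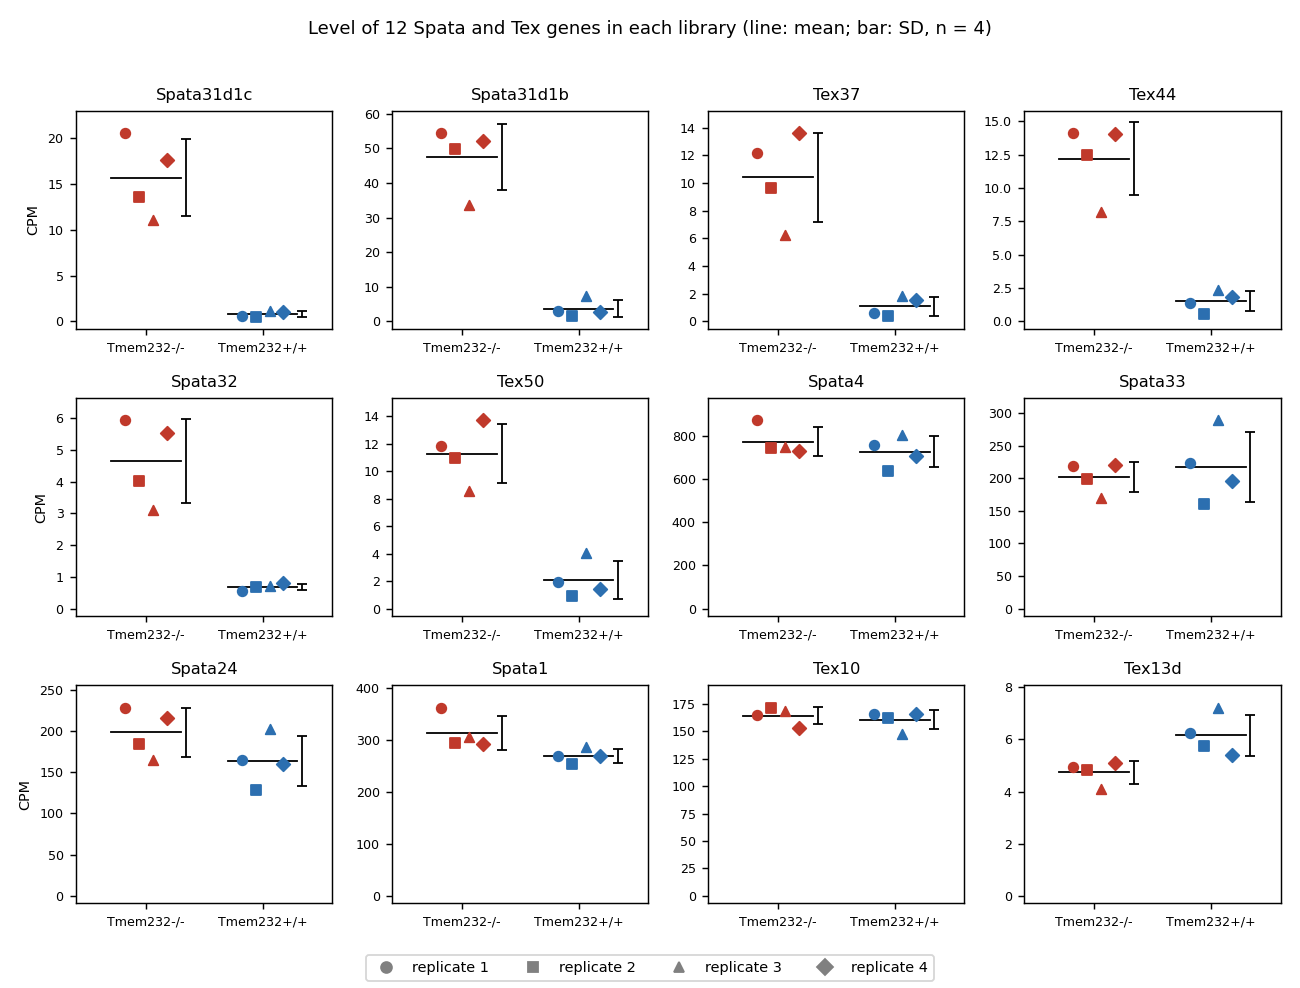
CPM of 12 members in each library, on a linear y axis for each gene. Points are libraries, with the shape giving the replicate number, the line is the mean and the bar the SD (n = 4). The first 6 genes rose most by their deposited counts, and lack of overlap between the genotypes was part of the rule that chose them. The values of Spata4, Spata33, Spata24 and Tex10 overlap.

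In the Tex13 family, X-linked genes of the germ line, 2 of 4 members were higher, against 10.3% of all tested genes. Tex13a (chrX:138208158-138209591) had 18.6 ± 2.26 against 8.05 ± 0.916 CPM, a log2 fold change of 1.21 (SE 0.12). Tex13c1 (chrX:43590989-43593530) had 19.9 ± 3.97 against 8.18 ± 0.976 CPM, a log2 fold change of 1.29 (SE 0.15). Tex13b was at 17.1 ± 2.30 and 17.7 ± 2.47 CPM, with an interval of the log2 fold change from -0.33 to 0.22. Tex13d had 4.92, 4.83, 4.11 and 5.10 CPM in the libraries labelled Tmem232-/- and 6.23, 5.75, 7.22 and 5.41 CPM in the others. It was the member whose libraries labelled Tmem232-/- all lay below the others, but its log2 fold change of -0.37 (SE 0.14) did not pass the test (adjusted p = 0.109). No other X-linked member was called, so 2 of 6 were higher on the X chromosome, against 20.5% of all 753 tested X-linked genes, and nothing is read from so few. Whether the members of the family differ from each other in their change was not tested.

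Of the members of earlier germ cells, 1 of 3 was higher, against 10.3% of all tested genes, and nothing is read from so few. Tex14, which keeps the bridges between germ cells open, had 118 ± 8.80 and 116 ± 10.9 CPM, and its log2 fold change was 0.02 with an interval from -0.17 to 0.20. X-linked Tex16 had 15.8 ± 2.09 and 17.6 ± 1.11 CPM, with an interval from -0.39 to 0.08. Tex24 rose from 18.6 ± 4.27 to 34.2 ± 8.31 CPM, by 0.88.

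Of the members grouped from general knowledge as broadly expressed, 2 of 13 were higher, a share near the 10.3% of all tested genes. Their median log2 fold change was -0.04, against -0.05 over all tested genes. Their levels in other tissues were not examined here. The count depends on the setting, since Tex2 and Spata24 each passed as higher under at least 1 alternative. Tex10, part of a complex in ribosome assembly, had 165, 172, 168 and 153 CPM in the libraries labelled Tmem232-/- and 166, 162, 148 and 166 CPM in the others. The groups overlapped, and the 95% interval of the log2 fold change was -0.11 to 0.18. The ATPase gene Spata5 had 150 ± 8.04 against 157 ± 2.32 CPM. Its partner Spata5l1 had the lowest log2 fold change of all members, -0.42 (SE 0.16, adjusted p = 0.135), at 5.73 ± 1.30 and 7.67 ± 0.844 CPM. Without replicate 4 labelled Tmem232-/- it passed the test as lower (adjusted p = 0.0232). The genes of the endoplasmic reticulum proteins Tex261 and Tex264 had log2 fold changes of -0.06 and -0.13, and Spata2, an adaptor of the deubiquitinase CYLD, had -0.08. Tex2, a lipid transfer protein, came nearest to the threshold from outside (adjusted p = 0.063). It had 525, 587, 555 and 427 CPM against 456, 404, 342 and 429 CPM, and replicate 4 of the first group overlapped with the second. Tex2 passed as higher under 5 of the 16 alternatives, DESeq2 among them (adjusted p = 0.0116). Tex9, Tex30, Spata13 and Spata24 were at 0.04, -0.04, -0.11 and 0.27. Spata24 passed as higher without replicate 3 labelled Tmem232+/+ (adjusted p = 0.0376). The 2 called members were Spata7 and Spata2l. Spata7, known from the connecting cilium of photoreceptors, had 185, 158, 141 and 155 CPM against 65.8, 65.0, 90.8 and 75.8 CPM. Its log2 fold change was 1.10 (SE 0.12, adjusted p = 8.49e-05). Spata2l, a relative of Spata2, rose from 10.99 ± 1.98 to 19.3 ± 3.25 CPM, by 0.81.

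Among the other 19 members, 15 were higher, against 10.3% of all tested genes. Their median log2 fold change was 1.203, against -0.05 over all tested genes. Tex52 could pass the filter on low counts through the libraries labelled Tmem232-/- alone. Tex28 also had under 10 counts in at least 1 library labelled Tmem232+/+. Tex50 (chr1:161154558-161159314) had 11.8, 10.98, 8.54 and 13.7 CPM in the libraries labelled Tmem232-/- and 1.93, 0.908, 4.05 and 1.41 CPM in the others, a log2 fold change of 2.44 (SE 0.34). Spata3 (chr1:86012340-86032244) rose from 9.83 ± 4.82 to 50.3 ± 11.7 CPM, by 2.36. Tex35 rose from 8.19 ± 3.92 to 34.7 ± 6.83 CPM, by 2.08. Spata25 rose by 1.92 and Tex29 by 1.67. Spata21, a protein with EF-hand motifs for calcium, was at a level near that of Spata20 and rose from 144 ± 19.7 to 331 ± 30.2 CPM, by 1.203. Spata9, Tex48 and Tex33 rose by 1.29, 1.27 and 1.24, and Tex26 and Tex36 by 1.07 and 1.06. The smaller rises were those of Spata45 by 0.98, Tex21 by 0.82 and Tex47 by 0.56. Tex52 was nearest to the threshold from inside (log2 fold change 1.90, SE 0.44, adjusted p = 0.0149). It rested on 74 counts against 20, and with the replicate number as a block it no longer passed (log2 fold change 1.91, adjusted p = 0.0541). Tex28, with 60 counts against 44, had an interval of the log2 fold change from -0.46 to 1.42, so its change was not resolved. Tex22 had a log2 fold change of -0.06.

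By mean FPKM over all 8 libraries, the 4 most abundant members were not called. Spata1 was not in the top 4 everywhere. Tex30 had a mean of 158.0 FPKM with the label Tmem232+/+, against 156.7 FPKM for Spata1. In replicate 1 labelled Tmem232-/- the called Tex33 was at 206.03 FPKM, against 202.05 FPKM for Spata1. Spata4 was at 863 ± 60.8 FPKM with the label Tmem232-/- and 830 ± 77.1 FPKM with the label Tmem232+/+. Spata33 followed with 535 ± 60.6 and 589 ± 147 FPKM, Spata24 with 366 ± 51.8 and 310 ± 56.6 FPKM and Spata1 with 178 ± 16.1 and 157 ± 8.35 FPKM. This order, Spata4 over Spata33 over Spata24 over Spata1, held within each library. For Spata1 the 4 libraries labelled Tmem232-/-, at 361, 294, 305 and 292 CPM, lay above the others, at 268, 252, 286 and 268 CPM, yet its log2 fold change of 0.22 had an adjusted p of 0.114. For Spata4 the CPM was 870, 741, 750 and 731 against 757, 636, 804 and 704, and the interval of its log2 fold change was -0.10 to 0.29.

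Some members could pass the filter on low counts through the libraries labelled Tmem232-/- alone. Spata31d1c, Spata32, Tex28, Tex37, Tex44 and Tex52 had under 10 counts in at least 1 library labelled Tmem232+/+, and 5 of these 6 were higher, so they were left out of the description by level. Of the other 50 members, sorted by their Tmem232+/+ level, 10 of 16 under 10 FPKM were higher, with a median log2 fold change of 0.95. Between 10 and 100 FPKM, 20 of 28 were higher, with a median of 1.08. Above 100 FPKM, 0 of 6 were higher by edgeR, with log2 fold changes from -0.11 to 0.27. Of these 6, Spata1 alone was higher at an unadjusted p under 0.05 and was called by DESeq2. The count of 0 rested on replicate 3 labelled Tmem232+/+, without which Spata1 (log2 fold change 0.28, adjusted p = 0.0442) and Spata24 (0.42, adjusted p = 0.0376) were called higher, 2 of 6. The shares of all tested genes with as many counts that were higher in the same bins were 10.1%, 10.5% and 2.79%. Spearman's rho of the Tmem232+/+ level and the change was -0.21 across the 50 members and 0.05 across all such genes, while the 56 tested members gave -0.38. These values are descriptions across genes, which are not independent replicates, and the Tmem232+/+ level enters both measures.

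**Figure D4:**
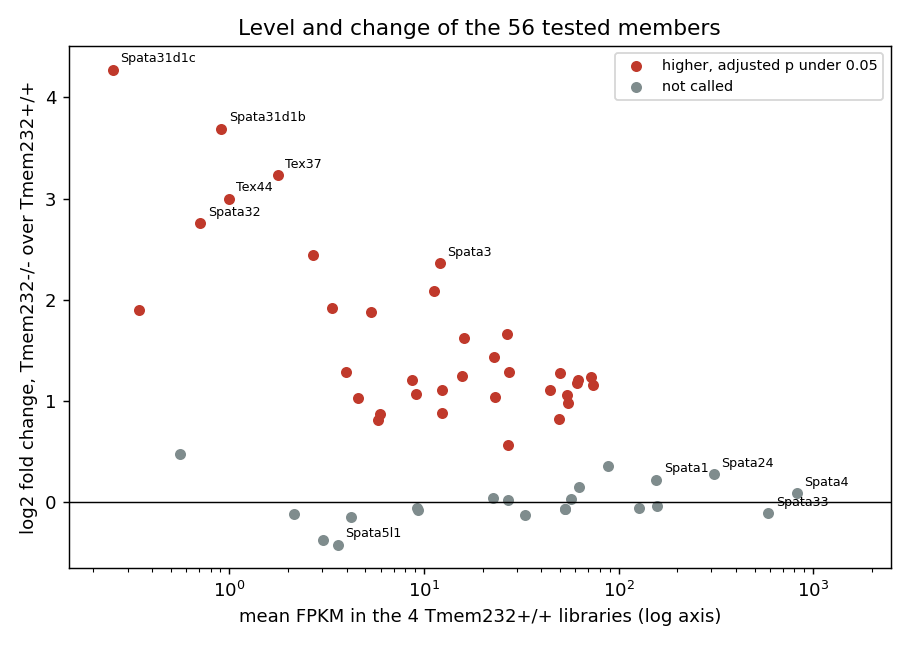
Mean FPKM in the 4 libraries labelled Tmem232+/+ (log axis) against the log2 fold change of the 56 tested members. The 6 members above 100 FPKM lie between -0.11 and 0.27, and none is called with all 8 libraries (2 are without replicate 3 labelled Tmem232+/+). The 6 members that rose most lie at 2.69 FPKM or less, and 4 of them had under 10 counts in a library labelled Tmem232+/+. Spata31d1b is 1 of these 6 by its deposited value, which shares reads with Spata31d1a. Counted as 1 feature, the pair changed by 1.71.

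The libraries of a genotype kept a similar order over the 35 higher members. Among the libraries labelled Tmem232-/-, replicate 1 was the highest in 29 of the 35 and replicate 3 the lowest in 31, whereas over all tested genes these libraries were highest in 31.6% and lowest in 27.0%. Among those labelled Tmem232+/+, replicate 3 was the highest in 30 of the 35 and replicate 2 the lowest in 32, against 36.0% and 29.9% of all tested genes. Relative to the mean of the libraries labelled Tmem232+/+, the median higher member was at log2 values of 1.55, 1.29, 1.01 and 1.24 in replicates 1 to 4 labelled Tmem232-/-. It was at -0.10, -0.44, 0.41 and 0.05 in replicates 1 to 4 labelled Tmem232+/+. The summed elongating spermatid markers were 2204, 1753, 1330 and 2064 CPM and 436, 339, 680.5 and 491.8 CPM in the same libraries. Replicate 1 was therefore the highest and replicate 3 the lowest of one genotype, and replicate 3 the highest and replicate 2 the lowest of the other, for these markers as for the members. The summed round spermatid markers had the same highest and lowest libraries. The spermatogonial and spermatocyte sums were also highest in replicate 1 labelled Tmem232-/- and replicate 3 labelled Tmem232+/+, but lowest in other libraries. Without replicate 3 labelled Tmem232+/+, 38 members were higher and the median log2 fold change was 1.23. Without replicate 1 labelled Tmem232-/-, 35 were higher and the median was 0.94.

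**Figure D5:**
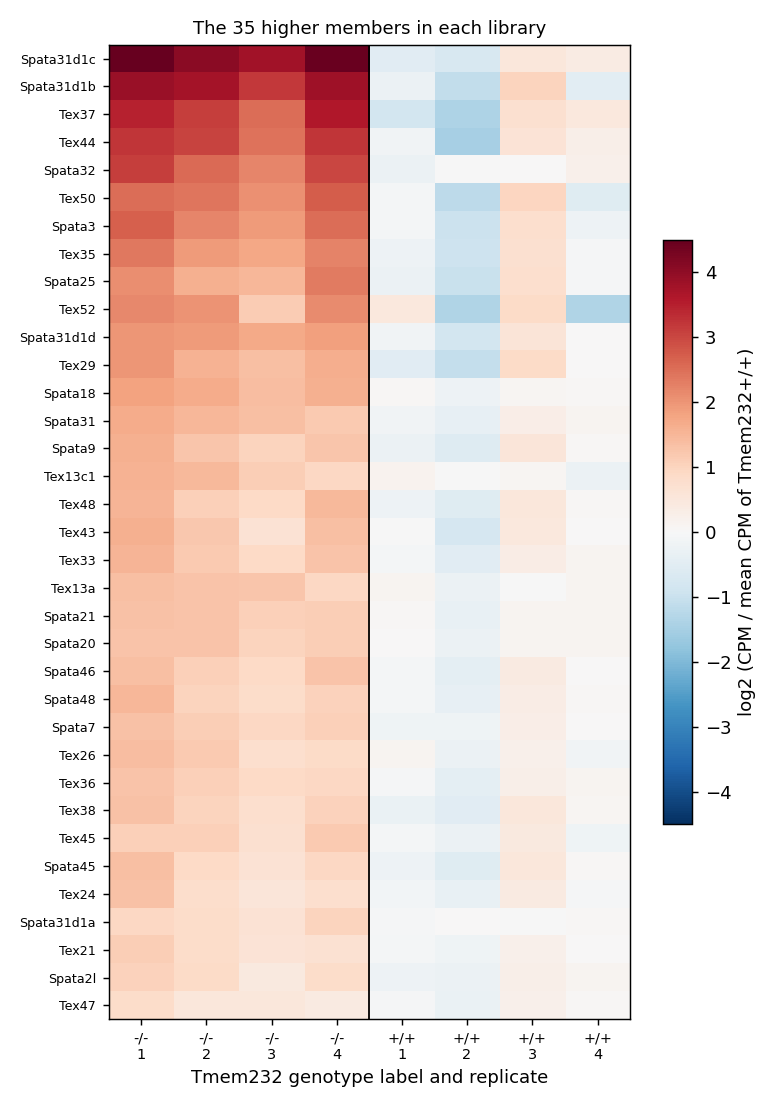
Log2 of CPM over the mean CPM of the libraries labelled Tmem232+/+, for the 35 higher members in rows and the 8 libraries in columns. All cells on the left of the line are red, with replicate 3 the palest in 31 rows, and on the right replicate 2 is the lowest in 32 rows and replicate 3 the highest in 30.

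CREM and related factors switch on many spermatid genes through the cAMP response element, TGACGTCA, or its shorter core TGACG. Both were searched on both strands in the RefSeq windows of 250 bases before to 50 after each start, which were found for 51 of the 57 members, and a full element also counts as a core. The full element was in 1 of the 31 higher members with a window, Spata7, and in 0 of the 19 that were not called. It was in 1.79% of all promoters and 2.03% of genes with any of their promoters. The core was in 7 of the 31 and 5 of the 19, against 20.8% of all promoters and 23.0% of genes with any of their promoters. These shares were near the background, and a match is a description of the letters only. Among the 6 members that rose most, Spata32 and Tex50 had the core and are shown with the 250 bases before their starts, at chr11:103218433-103218682 and chr1:161159315-161159564 on the minus strand of GRCm38.p6. Spata7 is shown by the 30 bases around its element, which reached the start site, at chr12:98628124-98628153 on the plus strand. Capitals mark the element or core.

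Spata32: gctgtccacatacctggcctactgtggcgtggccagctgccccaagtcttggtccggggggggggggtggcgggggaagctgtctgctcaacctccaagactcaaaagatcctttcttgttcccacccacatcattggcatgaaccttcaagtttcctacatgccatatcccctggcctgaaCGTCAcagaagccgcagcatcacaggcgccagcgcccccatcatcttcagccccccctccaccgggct

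Tex50: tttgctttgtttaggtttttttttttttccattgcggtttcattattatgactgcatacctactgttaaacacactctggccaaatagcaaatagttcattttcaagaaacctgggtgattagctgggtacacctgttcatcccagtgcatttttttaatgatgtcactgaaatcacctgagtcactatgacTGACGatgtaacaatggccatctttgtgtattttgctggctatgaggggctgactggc

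Spata7: tccctgtgttgTGACGTCAtaatctgcagc

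The 10 Spata and Tex genes that the rule set aside were tested in the same fit. Of these, 2 were higher and 1 was lower, against 10.3% and 1.46% of all tested genes, and nothing is read from so few. Spata19, a mitochondrial protein of sperm, rose by 1.54 on the log2 scale, and Spata6, of the sperm neck, by 0.49. Tex101, a germ cell surface protein, fell by 0.29 (adjusted p = 0.0451). Spata16, an acrosome gene, was not called, with 371.4 against 370.1 CPM and a log2 fold change of 0.01. The meiotic genes Spata22, Tex11, Tex12 and Tex15 had log2 fold changes between -0.10 and 0.11 and were not called.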

How the data were processed

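The authors sequenced TruSeq libraries of total RNA, removed low-quality reads and, per the labels, used HISAT, Bowtie2, StringTie, featureCounts and DESeq2 with GRCm38.p6. The versions are not given in the sources used here. The authors deposited estimated counts without normalization, of which 10.7% to 11.2% per library are not whole (to within 0.005), and FPKM values, which are scaled to transcript length and library size. The deposited group averages, log2 fold changes, p-values and q-values were not used.

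The members, gene groups, markers and tests were chosen with earlier results of these data known. Counts were rounded and compared in R 4.3.3 with edgeR 4.0.16 (filterByExpr, TMM scaling, quasi-likelihood test, no covariates), with Benjamini-Hochberg adjustment over all 15787 tested genes. Fold changes are of libraries labelled Tmem232-/- over those labelled Tmem232+/+. CPM per member was compared by an exact permutation test over 70 arrangements. Steps were tested on simulated data. Named were the 6 largest rises and falls (adjusted p under 0.05, a mean of at least 1 CPM, no overlap; no fall met this), the 4 highest FPKM, the change nearest 0 among the 10 highest CPM, those nearest the threshold, and the members of the groups. Others were chosen after their values were seen. Counts of 6 members were not whole (Spata1, Spata5, Spata31d1a, Spata31d1b, Tex9 and Tex10). Alternatives were DESeq2 1.42.0, its size factors, library size alone, no filter, at least 10 counts in every library, log2(FPKM + 1) with limma 3.58.1, a replicate block, each library left out and, added later, Spata31d1a and Spata31d1b as 1 feature and a minimum of 10 counts in each library labelled Tmem232+/+ for the description by level. Promoters were aligned with Biopython 1.88, and figures drawn with matplotlib 3.10.9 in Python 3.11.15.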

Additional observations from a re-analysis of the deposited data

Results flagged for a closer look

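In each genotype the highest or lowest library of each member was compared with the other 3 by Dixon's ratio. Of 114 groups of 4 libraries, 2 were past its 95% limit, and chance gives about 5.7. Spata4 stood out in replicate 1 labelled Tmem232-/-, at 870.3 CPM with a ratio of 0.865. Tex46 stood out in replicate 3 labelled Tmem232+/+, at 0.2533 CPM with a ratio of 0.991, a level of few counts.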

How the results depend on the processing

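Of the 35 higher members, 34 were called the same way under all 16 alternatives that could be fitted to them, and none reversed. Tex52 lost its call with the replicate block (log2 fold change 1.91, adjusted p = 0.0541), and Spata1, Spata17, Spata24, Tex2 and Spata5l1 (as lower) gained one under at least 1 alternative. The sizes of low genes depended on the scale: with log2(FPKM + 1), whose added 1 shrinks low values, the log2 fold change of Spata31d1c went from 4.27 to 2.19, Spata31d1b from 3.69 to 2.73, Tex44 to 2.15, Spata32 from 2.76 to 1.75 and Tex52 from 1.90 to 0.76. Without replicate 3 labelled Tmem232+/+, Spata31d1b was at 4.30. The number of higher members ranged from 30 with at least 10 counts in every library, which tests fewer genes, to 38 with DESeq2. With each library left out it ranged from 35 to 38, the number of lower members from 0 to 1 and the median log2 fold change of the members from 0.94 to 1.23. Same-numbered libraries did not deviate together (correlations from -0.41 to 0.12), no library correlated best with its own number, and the mice share only a number. The replicate block gave 34 higher members and a median of 1.05. Signs turned for 9 members that were not called, all near 0, and the cause was not tested. Over the fits without 1 library, the log2 fold change ranged from -0.23 to 0.092 for Spata33, from -0.14 to 0.073 for Tex13b, from -0.027 to 0.079 for Tex14, from -0.21 to 0.0042 for Spata13, from -0.053 to 0.16 for Tex9, from -0.092 to 0.0074 for Tex30, from -0.082 to 0.0077 for Tex261 and from -0.15 to 0.11 for Tex22. With library size alone Tex10 was at -0.00 and Tex14 at -0.017, with FPKM Tex10 at -0.017 and Tex14 at -0.012, and without a filter Tex30 at 0.0070. The scalings moved the median of all genes from -0.05 to between -0.09 and -0.02. Members under about 1 CPM, such as Tex28, Tex46 and Tex52, are limited by depth.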
